A study of Saccharomyces cerevisiae with 3 samples.

Results

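The UTP, NOP and RRP genes of budding yeast take their names from the U3 particle, from the nucleolar proteins and from ribosomal RNA processing. The genes described here are all Saccharomyces cerevisiae genes of the array whose symbol is UTP, NOP or RRP followed only by digits, which gave 53 of the 5449 genes measured, each with 1 probe set (18 UTP, 17 NOP and 18 RRP genes). The rule used names alone and no measured value, but it was set with earlier results of these data known.

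Ribosomes are assembled in the nucleolus around a long precursor RNA that RNA polymerase I makes from the ribosomal DNA. The UTP proteins bind the precursor as it is made, in the UTP-A, UTP-B and UTP-C complexes of the small subunit processome, together with the U3 small nucleolar RNA and its NOP proteins. Other NOP and RRP proteins guide methylation, cut and trim the precursor, or build the large subunit, and the exosome removes spacer RNA from its 3′ ends. In growing yeast the genes of this pathway are known to be transcribed together and to be turned down when nutrients run short.

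The study asked how loss of methionine synthesis, used as a genetic form of methionine restriction, changes expression in aged yeast and which changes need Rtg3, a transcription factor of the retrograde response that carries mitochondrial stress signals to the nucleus. RNA was taken on Day 3 of culture in synthetic complete medium from met15Δ rtg3Δ, met15Δ and wild-type cells, with 1 array per genotype and 3 arrays in all. All strains were haploids of the BY4741/BY4742 background carrying his3Δ1, leu2Δ0 and ura3Δ0. By the study's methods KanMX marked the further deletions of interest, other than met15Δ0 and lys2Δ0. No array was repeated, so the spread between cultures of 1 genotype is unknown, no test between genotypes was possible and every difference below compares arrays.

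Values are signals of a probe set after robust multi-array averaging (RMA), on a linear scale in arbitrary units. The background was taken from the 1746 probe sets of another yeast on the same array that carry 1 gene symbol. Probe sets with no symbol were left out of it. Its medians were 29.5 on the met15Δ rtg3Δ array, 29.0 on met15Δ and 29.4 on wild-type. Its ceiling, the highest of these signals, was 289 on met15Δ rtg3Δ and 273 on each of the others. The deleted genes were low on the arrays whose labels name the deletion. MET17, which is MET15, had signals of 89.9 in met15Δ rtg3Δ and 85.0 in met15Δ against 2874 in wild-type, and RTG3 had 28.7 in met15Δ rtg3Δ against 2215 in met15Δ and 2703 in wild-type. Genes of the a and α mating types moved with the genotypes as well, with HMRA1 (a) at 5016 in met15Δ rtg3Δ, 4073 in met15Δ and 47.1 in wild-type, and HMLALPHA1 (α) at 59.7 in met15Δ rtg3Δ, 71.5 in met15Δ and 977 in wild-type, so that loss of MET15 and mating type cannot be told apart in a comparison with wild-type. The actin gene ACT1 had 17322 in met15Δ rtg3Δ, 19610.1 in met15Δ and 7251 in wild-type. The 21 bacterial control probe sets had median log2 ratios of -0.62 for met15Δ over wild-type, 0.78 for met15Δ rtg3Δ over met15Δ and 0.24 for met15Δ rtg3Δ over wild-type, and their part in the results was not tested. Scaling the arrays to them adds 0.54 to every log2 ratio of met15Δ over wild-type and -0.77 to every log2 ratio of met15Δ rtg3Δ over met15Δ, which turns the direction of single genes that lie within those distances of 0. The ratio of 3′ to 5′ signals over 7 control transcripts, a sign of RNA quality, had medians of 2.60 in met15Δ rtg3Δ, 3.75 in met15Δ and 2.99 in wild-type, and its part was not tested. A lower signal here means a smaller share of the RNA, and less RNA per cell cannot be told apart from it.

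Expression of the 53 genes was lowest in met15Δ rtg3Δ and highest in wild-type. Their median signal was 892 in met15Δ rtg3Δ, 1599 in met15Δ and 2588 in wild-type, while the median over all S. cerevisiae probe sets was 1457 in met15Δ rtg3Δ, 1552 in met15Δ and 1504 in wild-type. The met15Δ rtg3Δ array held the lowest of the 3 signals for 45 genes and the wild-type array the highest for 45 genes. Neither of these counts was made over all probe sets. The full order, met15Δ rtg3Δ below met15Δ below wild-type, was found for 40 of 53 genes and for 21.4% of the 5498 S. cerevisiae probe sets.

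In met15Δ over wild-type, 17 of the 53 genes were at least 2-fold lower, the fold that the study's methods use for a call, against 11.1% of all S. cerevisiae probe sets. A single gene, RRP1, was at least 2-fold higher on the deposited signals, against 16.8% of all probe sets, but its wild-type signal lay under the background ceiling and the difference is a bound of at least 1.29-fold. Signals were lower by any amount for 45 genes, against 43.7% of all, and the median log2 ratio of the 53 genes was -0.64, against 0.07 over all probe sets. When the arrays were scaled to the bacterial controls, the count of genes at least 2-fold lower was 4, against 4.84% of all, and the median over all probe sets moved to 0.61.

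The met15Δ rtg3Δ array lay a further step below the met15Δ array. In met15Δ rtg3Δ over met15Δ, 19 genes were at least 2-fold lower (10.6% of all probe sets) and 0 were at least 2-fold higher (10.4% of all). Signals were lower by any amount for 47 genes (51.5% of all), with a median log2 ratio of -0.93, against -0.03 over all probe sets. Scaled to the bacterial controls, 43 genes were at least 2-fold lower, against 39.9% of all, with a median over all probe sets of -0.80.

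The whole distance, met15Δ rtg3Δ over wild-type, took 40 genes past 2-fold lower, which is 75.5% of the 53, against 17.2% of all probe sets. In that comparison 0 genes were at least 2-fold higher, against 21.1% of all, and 50 genes were lower by any amount, against 44.5% of all. The median was 2.96-fold lower, a log2 ratio of -1.57 against 0.08 over all probe sets, and 16 genes were at least 4-fold lower, against 5.02% of all. Scaled to the bacterial controls, 45 genes passed 2-fold lower, against 22.4% of all. The distance between the median of the 53 genes and that of all probe sets, -0.70, -0.90 and -1.65 on the log2 scale for met15Δ over wild-type, met15Δ rtg3Δ over met15Δ and met15Δ rtg3Δ over wild-type, does not depend on how whole arrays are scaled. The comparisons share arrays, so the steps are not independent of each other.

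**Figure D1:**
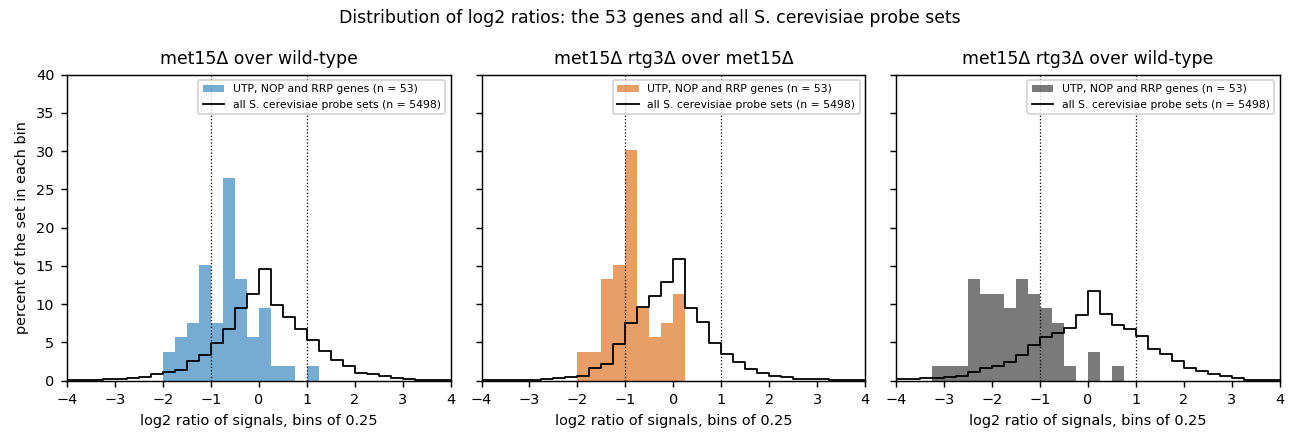
Share of the 53 UTP, NOP and RRP genes (filled bars) and of all 5498 S. cerevisiae probe sets (black line) in each bin of the log2 ratio, 1 panel per comparison; dotted lines mark 2-fold. The medians of the 53 genes lie at -0.64, -0.93 and -1.57 and those of all probe sets at 0.07, -0.03 and 0.08.

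Which step carried the difference varied from gene to gene. The steps are compared on the deposited signals here and below. Scaling to the bacterial controls makes every drop smaller in the first step and larger in the second. Which step is the larger can therefore change with the scaling. At least 2-fold lower in both steps were 4 genes, NOP58, RRP46, NOP19 and RRP5, against 1.26% of all S. cerevisiae probe sets. The first step alone, met15Δ over wild-type, passed 2-fold lower for 13 genes (9.86% of all) and the second step alone for 15 genes (9.33% of all). Neither step but the whole distance passed for 10 genes (5.02% of all), and 11 were not 2-fold lower in any comparison (74.5% of all). The 2-fold line ran through crowded values, with 4 genes between 1.8-fold and 2-fold lower in the first step and 11 in the second. Just inside it stood RRP17, 2.01-fold lower in met15Δ relative to wild-type, and just outside it NOP13, 1.98-fold lower.

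By the study's rule a change is RTG3-dependent when met15Δ differs at least 2-fold from wild-type and the change is at least 2-fold smaller in met15Δ rtg3Δ. None of the 53 genes met it (0 genes), against 5.24% of all probe sets. Of the 17 genes lower in met15Δ, only RRP45 had a higher signal in met15Δ rtg3Δ relative to met15Δ, with a log2 ratio of 0.21. RRP1 came nearest, higher in met15Δ by 2.31-fold on the deposited signals and 1.99-fold lower again in met15Δ rtg3Δ. Both ratios rest on signals under the background ceiling, and as bounds they are at least 1.29-fold and at least 1.22-fold. On signals not raised to that ceiling, RRP1 met the rule when the arrays were scaled to the bacterial controls.

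**Figure D2:**
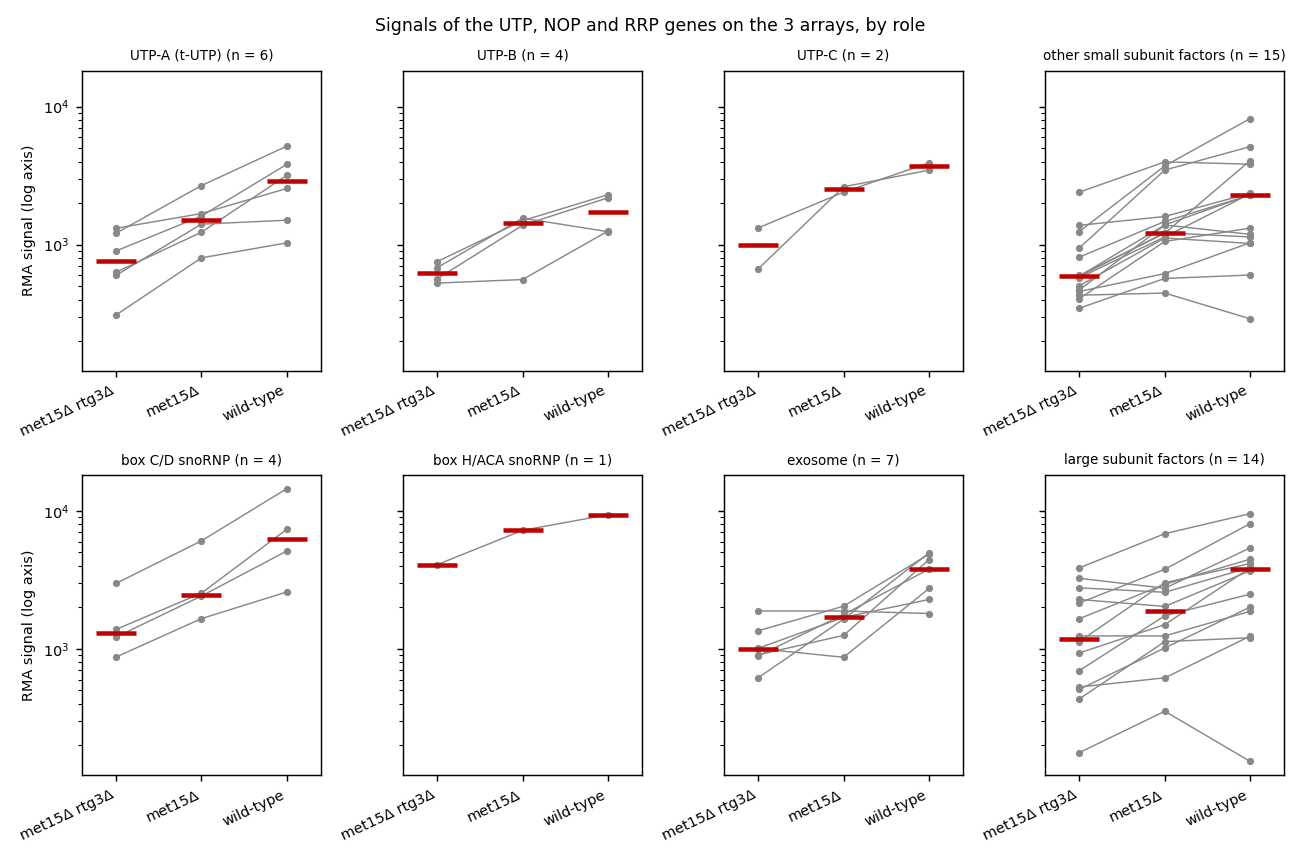
RMA signals (log axis) of each gene on the met15Δ rtg3Δ, met15Δ and wild-type arrays, 1 panel per role; grey points joined by a line are 1 gene and the red bar is the median of the panel. Medians climb from left to right in every panel, and UTP30 and RRP1 are the genes with the lowest wild-type signals, at 290 and 153.

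The UTP-A genes encode the t-UTP complex, the first to bind the 5′ end of the precursor and also linked to transcription of the ribosomal DNA. Of the 6 genes, 2 were at least 2-fold lower in met15Δ relative to wild-type, 3 in met15Δ rtg3Δ relative to met15Δ and 5 in met15Δ rtg3Δ relative to wild-type. The shares of all probe sets in those comparisons were 11.1%, 10.6% and 17.2%. UTP15 had signals of 632 in met15Δ rtg3Δ, 1230.3 in met15Δ and 3179.8 in wild-type. UTP5 had 899 in met15Δ rtg3Δ, 1612 in met15Δ and 3822 in wild-type. For these, the first step was the larger on the deposited signals, though not with the bacterial controls. The deposited log2 ratios were -1.37 and -1.25 for met15Δ over wild-type against -0.96 and -0.84 for met15Δ rtg3Δ over met15Δ. UTP10, a large repeat protein, had 1210.1 in met15Δ rtg3Δ, 2679 in met15Δ and 5175 in wild-type, just short of 2-fold in the first step and 2.21-fold lower in the second.

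UTP4 and UTP8 differed more between met15Δ rtg3Δ and met15Δ than between met15Δ and wild-type. UTP4 had signals of 599 in met15Δ rtg3Δ, 1407 in met15Δ and 1503 in wild-type, and UTP8 had 309 in met15Δ rtg3Δ, 802 in met15Δ and 1029.6 in wild-type. Their log2 ratios were -0.10 and -0.36 for met15Δ over wild-type and -1.23 and -1.38 for met15Δ rtg3Δ over met15Δ. UTP9 was the only UTP-A gene that passed 2-fold in no comparison, at 1313 in met15Δ rtg3Δ, 1679.9 in met15Δ and 2554 in wild-type.

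UTP-B is a second scaffold of the processome. UTP13 had 565 in met15Δ rtg3Δ, 1381 in met15Δ and 2185 in wild-type, and UTP6 had 753 in met15Δ rtg3Δ, 1490.3 in met15Δ and 2301 in wild-type. In met15Δ rtg3Δ both fell relative to wild-type, UTP13 by 3.87-fold and UTP6 by 3.06-fold. UTP18, which recruits the exosome cofactor Mtr4, had 526 in met15Δ rtg3Δ, 558 in met15Δ and 1254 in wild-type, so that nearly all of its difference lay in the first step (2.25-fold lower). UTP21 went the other way in that step, with 681 in met15Δ rtg3Δ, 1555 in met15Δ and 1241 in wild-type, and was 2.28-fold lower in met15Δ rtg3Δ relative to met15Δ.

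UTP-C holds UTP22 and RRP7. UTP22 had 667 in met15Δ rtg3Δ, 2626 in met15Δ and 3465 in wild-type and was 3.94-fold lower in met15Δ rtg3Δ relative to met15Δ, the largest second step of the 53 genes. RRP7 had 1321 in met15Δ rtg3Δ, 2402 in met15Δ and 3916 in wild-type, below 2-fold in each step and 2.96-fold lower over both.

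The box C/D particles guide methylation of the ribosomal RNA, and U3 is one of them. Each of their 4 genes here passed 2-fold lower in met15Δ rtg3Δ relative to wild-type (17.2% of all probe sets), with a median log2 ratio of -2.18. NOP1, the methyltransferase known as fibrillarin in animals, had 1385 in met15Δ rtg3Δ, 2537 in met15Δ and 7377 in wild-type. It was 2.91-fold lower in met15Δ relative to wild-type and 5.33-fold lower in met15Δ rtg3Δ. The core proteins NOP58 and NOP56 followed the same steps, NOP58 with 2985 in met15Δ rtg3Δ, 6069 in met15Δ and 14519 in wild-type and NOP56 with 1218 in met15Δ rtg3Δ, 2417 in met15Δ and 5131 in wild-type. RRP9, a protein of the U3 particle alone, had 873 in met15Δ rtg3Δ, 1658 in met15Δ and 2588 in wild-type, and its ratio passed 2-fold only over both steps (2.96-fold lower).

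The box H/ACA particles guide pseudouridylation, and NOP10 is one of their core proteins. NOP10 had 4079 in met15Δ rtg3Δ, 7235 in met15Δ and 9385 in wild-type, which was 2.30-fold lower over both steps and under 2-fold in each.

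The exosome trims and degrades RNA from its 3′ end, and 7 of its genes are among the 53. They had a median log2 ratio of -1.25 for met15Δ over wild-type and 5 of 7 genes at least 2-fold lower, against 11.1% of all probe sets. In met15Δ rtg3Δ over met15Δ their median was -0.59, with 1 of 7 genes (14.3%) at least 2-fold lower, against 10.6% of all. Scaled to the bacterial controls, the medians were -0.71 for met15Δ over wild-type and -1.37 for met15Δ rtg3Δ over met15Δ. RRP42, RRP43, RRP45 and RRP46 form part of the ring of the exosome. RRP46 had 618 in met15Δ rtg3Δ, 1647 in met15Δ and 4966 in wild-type, which was 8.03-fold lower in met15Δ rtg3Δ relative to wild-type, the largest difference of the 53 genes. RRP42 had 906 in met15Δ rtg3Δ, 1255 in met15Δ and 4444 in wild-type, and its 3.54-fold difference between met15Δ and wild-type was the largest first step.

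RRP45 had 1005 in met15Δ rtg3Δ, 869.9 in met15Δ and 2744 in wild-type, so that both mutants lay far below wild-type and near each other. RRP43 had 892 in met15Δ rtg3Δ, 1774 in met15Δ and 3795 in wild-type, while RRP40, a cap protein that binds RNA, had 1353 in met15Δ rtg3Δ, 2041 in met15Δ and 4865 in wild-type. RRP4, another cap protein, stood apart from them with 1883 in met15Δ rtg3Δ, 1883 in met15Δ and 1805 in wild-type, the same on both mutant arrays and within 1.04-fold of wild-type. RRP6, the exonuclease of the nuclear exosome, had 1011 in met15Δ rtg3Δ, 1695 in met15Δ and 2282 in wild-type and passed 2-fold only over both steps.

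**Figure D3:**
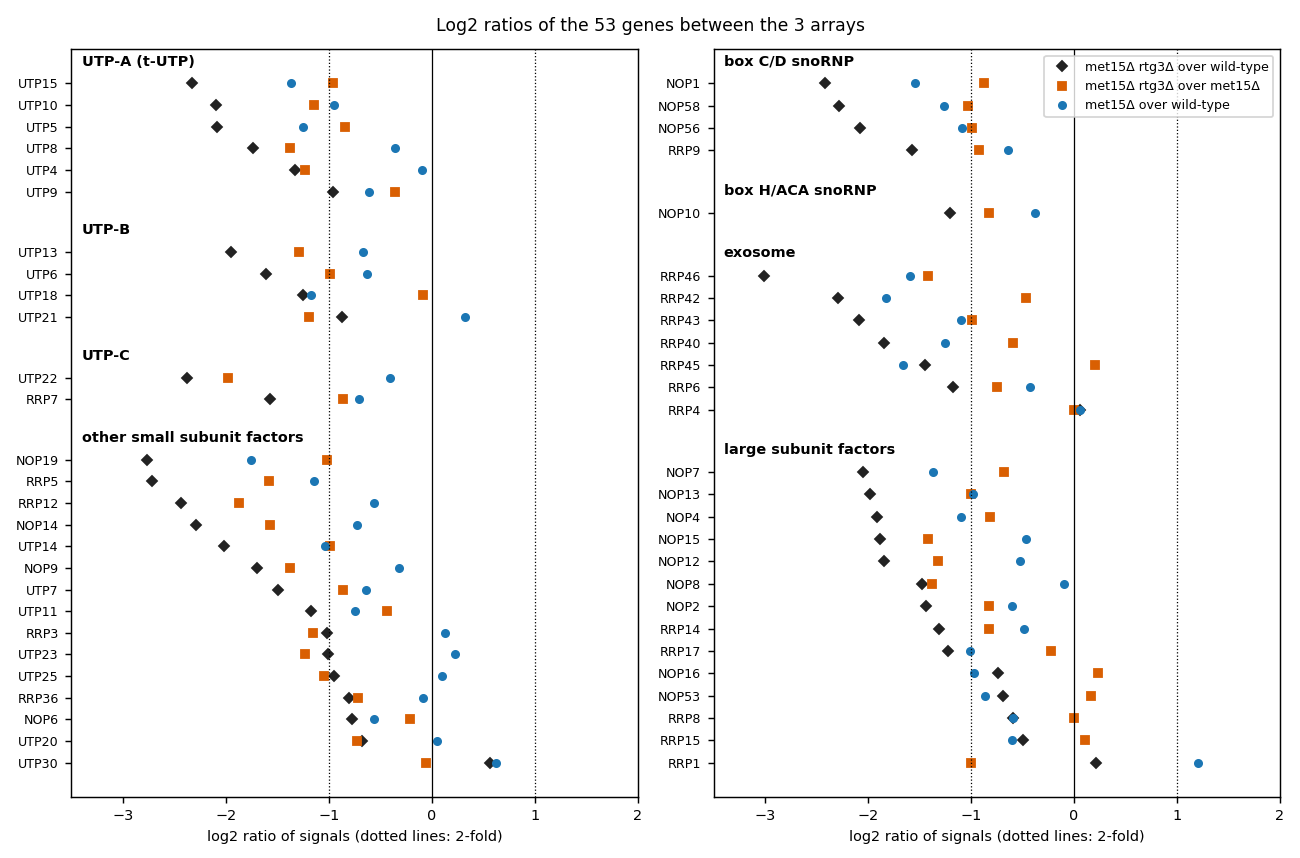
Log2 ratio of the signals of each of the 53 genes, grouped by role, for met15Δ rtg3Δ over wild-type (diamonds), met15Δ rtg3Δ over met15Δ (squares) and met15Δ over wild-type (circles); dotted lines mark 2-fold. For 40 genes the diamond lies at or beyond 2-fold lower, and RRP1 is the only gene with a circle beyond 2-fold higher.

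Large subunit factors made up 14 of the genes, of which 3 were at least 2-fold lower in met15Δ relative to wild-type, 3 in met15Δ rtg3Δ relative to met15Δ and 9 in met15Δ rtg3Δ relative to wild-type. These are 21.4%, 21.4% and 64.3%, against 11.1%, 10.6% and 17.2% of all probe sets. NOP7, which joins Erb1 and Ytm1 in a complex needed for the large subunit precursor, had 935 in met15Δ rtg3Δ, 1499.6 in met15Δ and 3872 in wild-type. NOP4, an RNA-binding protein, had 2152 in met15Δ rtg3Δ, 3776 in met15Δ and 8097 in wild-type, and RRP17, a 5′ exonuclease, had 529 in met15Δ rtg3Δ, 617 in met15Δ and 1239 in wild-type. These were the genes past 2-fold in the first step, and none of them passed it in the second. NOP15, NOP12 and NOP8, all with RNA-binding domains, were the ones past 2-fold in the second step. NOP15 had 1131 in met15Δ rtg3Δ, 3018 in met15Δ and 4159 in wild-type, NOP12 had 697 in met15Δ rtg3Δ, 1738 in met15Δ and 2496 in wild-type and NOP8 had 435 in met15Δ rtg3Δ, 1129 in met15Δ and 1206 in wild-type.

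NOP13, another RNA-binding protein, split its difference evenly, with 509 in met15Δ rtg3Δ, 1016 in met15Δ and 2009.6 in wild-type. NOP2, a methyltransferase of the large ribosomal RNA, had 1656 in met15Δ rtg3Δ, 2938 in met15Δ and 4469 in wild-type, and RRP14 had 3867 in met15Δ rtg3Δ, 6839.6 in met15Δ and 9559 in wild-type. Each of them was over 2-fold lower in met15Δ rtg3Δ relative to wild-type without passing 2-fold in either step.

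A group of large subunit genes had no lower signal in met15Δ rtg3Δ relative to met15Δ. NOP16 had 3248 in met15Δ rtg3Δ, 2752 in met15Δ and 5396 in wild-type, NOP53 had 2282 in met15Δ rtg3Δ, 2032 in met15Δ and 3685 in wild-type and RRP15 had 2769.7 in met15Δ rtg3Δ, 2574 in met15Δ and 3897 in wild-type. RRP8, a methyltransferase, had 1242 in met15Δ rtg3Δ, 1242 in met15Δ and 1873 in wild-type, equal on both mutant arrays. None of these 4 genes passed 2-fold in any comparison. RRP1 was among the 8 of the 53 genes with a higher signal in met15Δ than in wild-type, with 177 in met15Δ rtg3Δ, 353 in met15Δ and 153 in wild-type. Its met15Δ rtg3Δ and wild-type signals lay under the background ceiling, so its second step too is a bound, at least 1.22-fold lower in met15Δ rtg3Δ relative to met15Δ.

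The remaining 15 small subunit factors included 3 at least 2-fold lower in met15Δ relative to wild-type, 8 in met15Δ rtg3Δ relative to met15Δ and 10 in met15Δ rtg3Δ relative to wild-type. These are 20%, 53.3% and 66.7%, against 11.1%, 10.6% and 17.2% of all probe sets. NOP19 had 597 in met15Δ rtg3Δ, 1209 in met15Δ and 4067 in wild-type and RRP5, which is needed for both subunits, had 1244 in met15Δ rtg3Δ, 3718 in met15Δ and 8194 in wild-type. Over both steps NOP19 was 6.81-fold and RRP5 6.59-fold lower, and each passed 2-fold in both steps. UTP14, the partner of a helicase that takes U3 off the precursor, had 575 in met15Δ rtg3Δ, 1137 in met15Δ and 2335 in wild-type and passed in the first step.

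RRP12, a repeat protein linked to export of the subunits, had 946 in met15Δ rtg3Δ, 3471 in met15Δ and 5129 in wild-type. NOP14 had 469 in met15Δ rtg3Δ, 1389 in met15Δ and 2298 in wild-type, and NOP9, an RNA-binding protein, had 406 in met15Δ rtg3Δ, 1054 in met15Δ and 1317 in wild-type. In these genes the larger part of the difference lay between the mutants, at 3.67-fold, 2.96-fold and 2.59-fold in met15Δ rtg3Δ against met15Δ.

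RRP3, a helicase, UTP23 and UTP25 were not lower in met15Δ relative to wild-type but were over 2-fold lower in met15Δ rtg3Δ relative to met15Δ. RRP3 had 504 in met15Δ rtg3Δ, 1117 in met15Δ and 1019.5 in wild-type, UTP23 had 591 in met15Δ rtg3Δ, 1388 in met15Δ and 1186 in wild-type and UTP25 had 589 in met15Δ rtg3Δ, 1219 in met15Δ and 1136 in wild-type. UTP20, a very large protein, had 2399.9 in met15Δ rtg3Δ, 3977 in met15Δ and 3827 in wild-type, with met15Δ and wild-type within 1.04-fold of each other, and RRP36 had 346 in met15Δ rtg3Δ, 569 in met15Δ and 602 in wild-type. UTP30, related to a ribosomal protein, was the only one of the 15 with a lower signal in wild-type than in either mutant, at 429.9 in met15Δ rtg3Δ, 446 in met15Δ and 289.9 in wild-type. The other factors, UTP7, UTP11 and NOP6, had log2 ratios for met15Δ rtg3Δ over wild-type of -1.49, -1.17 and -0.77.

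Genes of the same complexes that carry other names were lower as well. Of 19 such partners, 7 passed 2-fold lower and 1 passed 2-fold higher in met15Δ over wild-type, 3 lower and 0 higher in met15Δ rtg3Δ over met15Δ, and 14 lower and 0 higher in met15Δ rtg3Δ over wild-type, with medians of -0.72, -0.55 and -1.30. The shares of all probe sets in those comparisons were 11.1%, 10.6% and 17.2% lower and 16.8%, 10.4% and 21.1% higher. PWP2, a UTP-B protein, had 516 in met15Δ rtg3Δ, 1179 in met15Δ and 6995 in wild-type, 13.6-fold lower in met15Δ rtg3Δ relative to wild-type. SNU13, the protein that opens box C/D assembly, had 3058 in met15Δ rtg3Δ, 3191 in met15Δ and 17848 in wild-type, nearly all of its difference in the first step. DIS3, the catalytic subunit of the exosome, rose in met15Δ, with 1035 in met15Δ rtg3Δ, 2078 in met15Δ and 1025 in wild-type, and was 2.01-fold lower in met15Δ rtg3Δ relative to met15Δ. It was the 1 partner of 19 that met the rule for RTG3 dependence, against 5.24% of all probe sets. MTR3 had 399 in met15Δ rtg3Δ, 548 in met15Δ and 287 in wild-type, LRP1, the partner of RRP6, had 4722 in met15Δ rtg3Δ, 3343 in met15Δ and 4014 in wild-type, and IMP3, a U3 protein, had 608 in met15Δ rtg3Δ, 1269.9 in met15Δ and 1341 in wild-type, while SKI6 had a signal of 1286 on each array.

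A list of 84 other ribosome biogenesis factors gave medians of -0.59 for met15Δ over wild-type, -0.83 for met15Δ rtg3Δ over met15Δ and -1.38 for met15Δ rtg3Δ over wild-type. In those comparisons 21, 27 and 61 of them were at least 2-fold lower, against 11.1%, 10.6% and 17.2% of all probe sets. At least 2-fold higher were 0, 1 and 0, against 16.8%, 10.4% and 21.1% of all. With signals under the background ceiling taken as bounds the counts lower were 21, 26 and 60. RRB1, a chaperone of the ribosomal protein Rpl3, had 540.5 in met15Δ rtg3Δ, 1695 in met15Δ and 4857 in wild-type, and RNT1, the RNase III of the precursor, had 331 in met15Δ rtg3Δ, 797 in met15Δ and 2684 in wild-type. BUD23, a methyltransferase of the small ribosomal RNA, was the 1 gene of the list at least 2-fold higher in met15Δ rtg3Δ relative to met15Δ. Its signals were 3168 in met15Δ rtg3Δ, 1423 in met15Δ and 5503 in wild-type. It was also the 1 gene of the 84 that met the rule for RTG3 dependence, against 5.24% of all probe sets.

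The 148 cytosolic ribosomal protein genes, many of them near-identical pairs that a probe set may not separate, had medians of -0.23 for met15Δ over wild-type, -0.58 for met15Δ rtg3Δ over met15Δ and -0.81 for met15Δ rtg3Δ over wild-type. In those comparisons 2, 14 and 42 of them were at least 2-fold lower. These are 1.35%, 9.46% and 28.4%, against 11.1%, 10.6% and 17.2% of all probe sets, so only the last is above its share. In each comparison 1 was higher (RPL18B, RPS9A and RPL18B in turn), against 16.8%, 10.4% and 21.1% of all. The rule for RTG3 dependence was met by 1 gene (RPS9A), against 5.24% of all. Scaled to the bacterial controls, their median for met15Δ over wild-type turned to 0.31. RNA polymerase I and its factors (15 genes) had medians of -0.39, 0.02 and -0.32 for the same comparisons. Of these genes 2, 3 and 5 were at least 2-fold lower, which is 13.3%, 20% and 33.3%, against the same shares of all probe sets. Of the calls upward (1, 1 and 2 on the deposited signals, RRN7 or RRN5), all rested on a signal under the background ceiling, and as bounds only RRN7 passed 2-fold, at least 2.10-fold higher in met15Δ rtg3Δ over wild-type. The first of the list's medians turned to 0.15 and the second to -0.76 with the bacterial controls. RPA190, the largest subunit, had 2219 in met15Δ rtg3Δ, 4673 in met15Δ and 8831 in wild-type, and RPA49 had 369.6 in met15Δ rtg3Δ, 1045 in met15Δ and 2102 in wild-type.

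**Figure D4:**
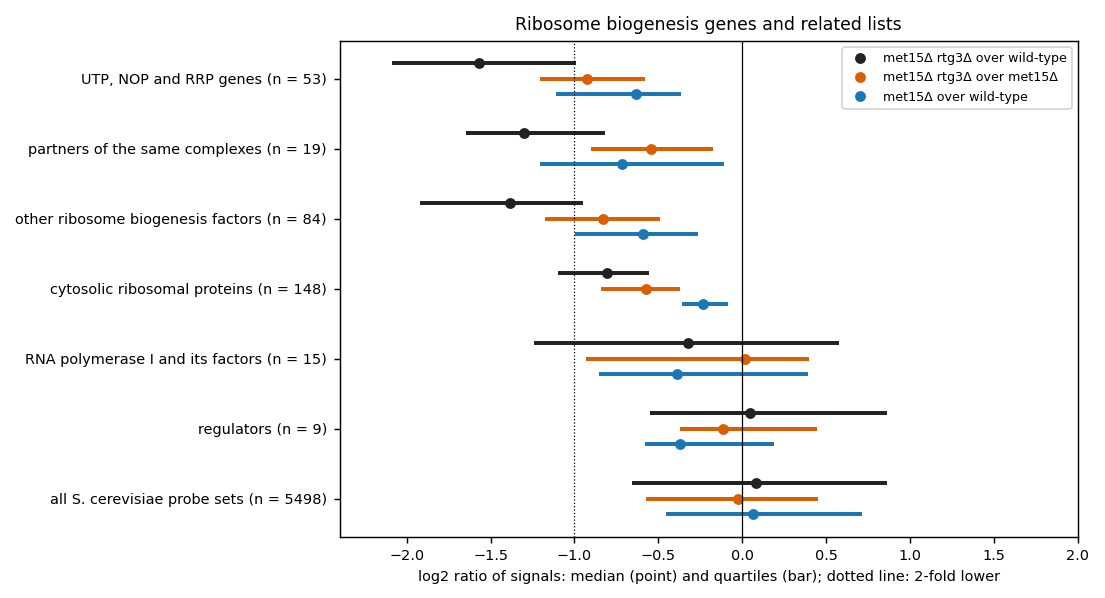
Median (point) and quartiles (bar) of the log2 ratios of the 53 UTP, NOP and RRP genes, of related gene lists and of all S. cerevisiae probe sets, for each comparison; the dotted line marks 2-fold lower. For met15Δ rtg3Δ over wild-type the medians are -1.57 for the 53 genes, -1.30 for partners of the same complexes, -1.38 for other biogenesis factors and -0.81 for ribosomal proteins.

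Among 9 known regulators of ribosome biogenesis or ribosomal protein genes, 1 was at least 2-fold lower in each comparison, a different gene each time. It was DOT6 in met15Δ over wild-type, against 11.1% of all probe sets. It was CRF1 in met15Δ rtg3Δ over met15Δ (10.6% of all) and IFH1 in met15Δ rtg3Δ over wild-type (17.2% of all). At least 2-fold higher were CRF1 alone in met15Δ over wild-type (16.8% of all) and DOT6 alone in met15Δ rtg3Δ over met15Δ (10.4% of all). In met15Δ rtg3Δ over wild-type 1 was higher on the deposited signals (21.1% of all). With a signal under the background ceiling taken as a bound 0 were, CRF1 being at least 1.53-fold higher there. DOT6, a repressor that binds the promoters of ribosome biogenesis genes, had 21277 in met15Δ rtg3Δ, 6709 in met15Δ and 16086 in wild-type, so that it was lowest in met15Δ and 3.17-fold higher in met15Δ rtg3Δ relative to met15Δ. The list had medians of -0.37 for met15Δ over wild-type, -0.12 for met15Δ rtg3Δ over met15Δ and 0.05 for met15Δ rtg3Δ over wild-type. IFH1, an activator of ribosomal protein genes, had 586 in met15Δ rtg3Δ, 1044 in met15Δ and 1887 in wild-type, in the same order as most of the 53 genes. FHL1, with 475 in met15Δ rtg3Δ, 610 in met15Δ and 859 in wild-type, had that order too. So did RAP1, with 1333 in met15Δ rtg3Δ, 1479 in met15Δ and 1912 in wild-type. The remaining regulators did not share it. SFP1 had 2487 in met15Δ rtg3Δ, 2698 in met15Δ and 2406 in wild-type. TOD6 had 1462 in met15Δ rtg3Δ, 1435 in met15Δ and 2124 in wild-type. CRF1, which takes the place of Ifh1 as a corepressor, had 418 in met15Δ rtg3Δ, 1311 in met15Δ and 169.9 in wild-type, at least 4.80-fold higher in met15Δ relative to wild-type, where its signal lay under the background ceiling. DOT6 and CRF1 were the 2 of 9 regulators that met the rule for RTG3 dependence, against 5.24% of all probe sets. STB3, which binds a motif found upstream of ribosomal RNA processing genes, had 4230.3 in met15Δ rtg3Δ, 2469 in met15Δ and 2188 in wild-type.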

How the data were processed

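RNA of 3 cultures, 1 per genotype, had been hybridised to Affymetrix Yeast Genome 2.0 arrays as biotin-labelled cRNA, per the labels. The authors background-corrected the scans and made the deposited signals, 1 linear value for each of the 10928 probe sets, with robust multi-array averaging (RMA) in RMAExpress. For its normalization, the options chosen were not given in the sources used here. Gene names came from the platform annotation (7244 with 1 symbol, 1 with several, 3683 with none) and matched to a gene table of assembly R64, used for names and gene order only. All 53 symbols were the same in both.

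Ratios of the signals were computed as deposited, with Python 3.11.15, pandas 2.3.3 and NumPy 2.4.6, and plotted with matplotlib 3.10.9. The call was 2-fold, as in the study's methods. With 1 array per genotype no test was run, and the number of arrays limits the precision. Counting was tested on simulated data. A ratio with its smaller value below the background ceiling, the top signal among the 1-symbol probe sets for the other yeast, is given as a bound against that ceiling. Counts of calls are on the deposited signals, and the text says where bounds change them.

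The 53 genes and the gene lists were chosen with earlier results of these data known. The lists were written from general knowledge of yeast, and DBP4 and MDN1 were not found among the named probe sets. Genes were named by role (the lowest and highest ratios of each step, up to 6 per role), by position at the 2-fold line, by the highest and lowest mean signals, and, outside the 53, by the lowest and highest ratios of a list. Of those, only the ones the text needs are given, and other members were added to make the account fuller. Alternatives were other array scalings, raising or leaving out low signals, and a fold of 1.5. A planned search of promoters for motifs was not run, since no promoter sequence was used here.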

Additional observations from a re-analysis of the deposited data

How the results depend on the processing

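With 1 array per genotype, a difference between cultures and one between genotypes cannot be told apart, and no paired analysis was possible because each genotype has 1 array. Scaling the arrays moved the median of all probe sets for met15Δ over wild-type, met15Δ rtg3Δ over met15Δ and met15Δ rtg3Δ over wild-type to -0.24, -0.22 and -0.41 when arrays were divided by the median of all probe sets, and to 0.61, -0.80 and -0.15 when they were scaled to the bacterial controls. The medians of the 53 genes for the same comparisons were then -0.94, -1.12 and -2.06 with the median of all probe sets, and -0.095, -1.70 and -1.80 with the bacterial controls. For met15Δ over wild-type, 4 genes were at least 2-fold lower with the bacterial controls, and 32 at 1.5-fold, against 17. The number higher, 1 as deposited, was 0 when arrays were divided by the median of all probe sets, 0 when low signals were raised, 0 when the low gene was left out, 2 with the bacterial controls and 2 at 1.5-fold (RRP1 and UTP30). For met15Δ rtg3Δ over met15Δ, the count lower was 35 with the median of all probe sets, 43 with the bacterial controls and 40 at 1.5-fold, against 19. RTG3-dependent genes numbered 1 with the bacterial controls and 1 at 1.5-fold, RRP1 each time, whose met15Δ rtg3Δ and wild-type signals lay under the background ceiling. For met15Δ rtg3Δ over wild-type the count lower was 38 to 49 under every alternative run. At the bacterial scaling, the share of all probe sets past 2-fold was 33.5% upward and 4.84% downward for met15Δ over wild-type, and 2.8% upward and 39.9% downward for met15Δ rtg3Δ over met15Δ. The cause of these shifts was not tested.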

Other observations

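The array also carries control probe sets for ribosomal RNA, and whether their signals follow its amount in the cell was not tested. Of 7 control probe sets for yeast ribosomal RNA, all 7 had a higher signal in met15Δ rtg3Δ than in met15Δ, with a median log2 ratio of 0.65 (0.10 to 2.60) and 2 at least 2-fold higher. All 7 were higher in met15Δ rtg3Δ than in wild-type as well, with a median of 0.54. Scaling to the bacterial controls adds -0.77 and -0.23 to these ratios, which takes the first median below 0. In met15Δ over wild-type 3 were higher and the median was -0.07, with 1 probe set at least 2-fold lower. Probe sets of the same ribosomal RNA differed among themselves. The 18S 3′ probe set had 29382 in met15Δ rtg3Δ, 4832 in met15Δ and 9227 in wild-type, while the 18S 5′ probe set had 28827 in met15Δ rtg3Δ, 26903 in met15Δ and 25622 in wild-type.

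In the gene order of assembly R64, 4 of the 53 genes lay next to a gene of the partner or other biogenesis lists. RRP3 and SSF1 are transcribed away from each other, with log2 ratios of 0.13 and 0.86 for met15Δ over wild-type. For met15Δ rtg3Δ over met15Δ RRP3 had -1.15, and SSF1, with a met15Δ rtg3Δ signal under the background ceiling, was at least 1.82-fold lower. PWP1 and NOP56 lie in tandem, with -1.21 and -1.09 for met15Δ over wild-type and -0.32 and -0.99 for met15Δ rtg3Δ over met15Δ. RRP15 and NOC4 face each other, with -0.60 and -0.55 for met15Δ over wild-type and 0.11 and -1.05 for met15Δ rtg3Δ over met15Δ. UTP9 and RIX1 lie in tandem, with -0.60 and -0.36 for met15Δ over wild-type. For met15Δ rtg3Δ over met15Δ UTP9 had -0.36, and RIX1, under the ceiling in met15Δ rtg3Δ, was at least 1.58-fold lower.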
